A study of Mus musculus with 6 samples.

Results

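The genes described here are 36 genes of the cell cycle and of DNA replication, picked by name and found by their Entrez gene numbers, each matched to a mouse symbol, among the 27179 genes of a count table. All 36 had a row. They were sorted by role into 10 replication genes, 8 G1 cyclins and cyclin-dependent kinases, and 18 genes of mitosis. RNA came from mesenchymal stromal cells of the bone marrow of C57BL/6 mice on postnatal day 2. The genotype was Cxcl12-dsred/+, a heterozygous allele that marks cells with an active Cxcl12 gene with the red protein DsRed, and cells were sorted for DsRed and against CD45, Ter119 and CD31. All groups share this strain, genotype, age and sort. The anti-m6A group (2 libraries) is poly(A) RNA bound by an antibody to N6-methyladenosine, the IgG group (2 libraries) is RNA bound by control antibody on the same beads, and the Input group (2 libraries) is the 6% of RNA set aside before the pull-down. The labels do not say whether replicates came from separate animals or pooled ones, so each p-value rests on library-to-library spread that may be technical.

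A dividing cell first commits to a round of division through D-type cyclins with CDK4 or CDK6 and E-type cyclins with CDK2. It then copies its DNA with the MCM helicase, the clamp PCNA and nucleotides supplied by ribonucleotide reductase and thymidylate synthase. Finally it separates the chromosomes under CDK1 with B-type cyclins, the Aurora and Polo kinases, the spindle checkpoint and the anaphase-promoting complex. N6-methyladenosine (m6A) is a modified base of mRNA, laid down at adenosines within a short consensus of which GGACT is the best known form and often found near the stop codon. The protocol in the labels names no fragmentation of the RNA, and values are totals over a gene, so no methylated site is located here.

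Sequences are shown first for transcripts that took very different shares of the pull-down. For each of the MCM helicase genes, and for Rrm2, Ube2c, Top2a and Cdk1, the GGACT nearest to the stop codon is printed in capitals with 12 bases on each side (GENCODE M21 principal transcript, GRCm38, 5′ to 3′ on the transcript's strand). A match is a description of these letters, not a measured site.
Mcm3: gtgagacgatcaGGACTtggtggaagctt
Mcm5: cagcattgtccaGGACTtcaccaaacaga
Mcm6: atctgcagctgcGGACTctcctccgcggt
Mcm4: tgcatggccctcGGACTagagtcactcac
Mcm7: ggagatgtcgaaGGACTcccttctaggtg
Mcm2: agttgtgtttctGGACTgttttgttttcc
Rrm2: tttaaagatgtcGGACTgcttcctgcagg
Ube2c: tatatgatgtcaGGACTatcttgctctct
Top2a: ggacttccctgtGGACTtggaagacacga
Cdk1: aaactgtcatctGGACTtttcttaatttc
The Mcm3 match lies in the 3′ UTR in exon 17 of 17, at chr1:20803357-20803361 on the minus strand, 95 bases past the stop codon. The Mcm5 match is coding, in exon 16 of 17, at chr8:75126349-75126353 on the plus strand. The Mcm6 transcript holds 1 GGACT in all, coding and in exon 1 of 17 at chr1:128359614-128359618 on the minus strand. The Mcm7 match is coding, in exon 14 of 15, at chr5:138165083-138165087 on the minus strand, and the Mcm4 match starts 15 bases past the stop codon in the 3′ UTR, at chr16:15624658-15624662 on the minus strand. The Ube2c match is coding, in exon 4 of 6, at chr2:164772023-164772027 on the plus strand. The Mcm2, Rrm2 and Cdk1 matches are in the 3′ UTR at chr6:88883695-88883699 (minus), chr12:24713585-24713589 (plus) and chr10:69338385-69338389 (minus), and the Top2a match is coding at chr11:98993899-98993903 (minus).

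A GGACT was found in 34 of 36 member transcripts (94.4%), all but Cdk4 and Cdc20, and in 87.0% of 21877 protein-coding transcripts, 1 per gene. Among the 10192 transcripts of tested genes the share was 91.8%. The median density was 1.02 per kb in the members, 1.01 per kb in the 21877 transcripts and 1.06 per kb in those of tested genes. It was 0.80 per kb in the 7 members higher in anti-m6A than in Input, 1.07 per kb in the 6 lower and 1.18 per kb in the 18 not called. Mcm3, far scarcer in anti-m6A than in Input, holds 8 matches, while Cdc20, more abundant in anti-m6A, holds none. Across the 31 members tested, Spearman's rho between GGACT per kb and the log2 change in anti-m6A against Input was -0.18; across 10192 tested genes it was 0.04. Genes share the same 6 libraries and are not independent replicates.

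Total counts were 6102070 and 5133237 in the anti-m6A libraries, 2487148 and 1278735 in IgG, and 7125578 and 9493391 in Input. Levels are given as CPM, counts scaled by the library size after trimmed-mean (TMM) normalisation. A count of 3 in a library, taken as the limit that a count of 0 allows, stands for 0.622 and 0.756 CPM in the anti-m6A libraries, 1.16 and 1.94 in IgG and 0.355 and 0.291 in Input; it covers counting error only. All 12 stroma markers checked, among them Cxcl12, Pdgfrb and Lepr, had counts in every anti-m6A and Input library, and 4 of them (Pdgfra, Kitl, Prrx1 and Col3a1) were at 0 in both IgG libraries. Ptprc, which encodes CD45, was at 0 in all 6 libraries. Pecam1, which encodes CD31, had 92 and 69 counts in Input, 1 and 0 in anti-m6A and 0 in IgG. The 8 endothelial genes, Pecam1 included, summed to 227 and 250 CPM in anti-m6A, 0 in IgG and 269 and 209 CPM in Input. Of the 8, 2 were at 0 in both Input libraries. Markers of other cells were present too: 9 erythroid genes summed to 1072 and 1241 CPM in anti-m6A, against 3621 and 3531 in IgG and 455 and 701 in Input, and 12 liver genes to 1245 and 1308, 25525 and 23389, and 160 and 1973 CPM in the same groups. The 10 myeloid genes, with Ptprc among them, summed to 84.0 and 93.3 CPM in anti-m6A, against 2577 and 1722 in IgG and 97.9 and 182 in Input; Mpo was at 0 outside IgG, and 7 of the 10 were at 0 in both IgG libraries.

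Of the 36 members, 34 had counts in both anti-m6A libraries, 5 in both IgG libraries and 24 in both Input libraries. The 2 absent from anti-m6A were Bub1 and Bub1b, kinases of the spindle checkpoint. In Input 7 members were at 0 in both libraries (Rrm2, Cdk6, Ccne2, Mki67, Aurkb, Ube2c and Bub1b) and 5 in 1 of them. A count of 0 in such a library does not show that the cells lack the transcript.

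**Figure D1:**
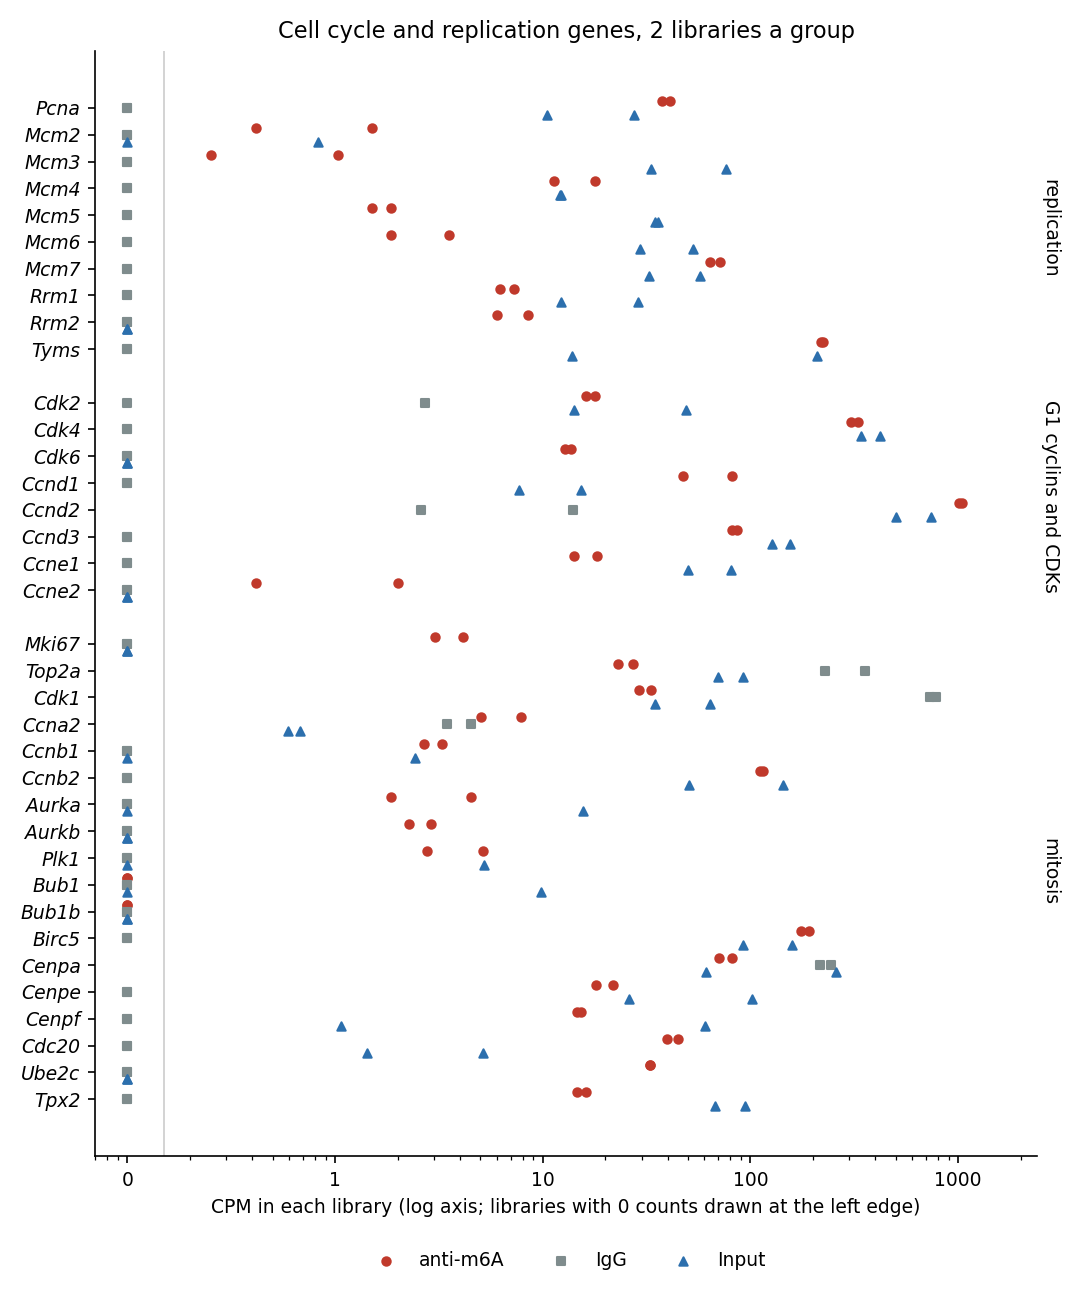
CPM of each of the 36 members in each of the 6 libraries, on a log axis, with libraries at 0 drawn at the left edge; circles are anti-m6A, squares IgG and triangles Input. No replication gene has counts in IgG, while Top2a, Cdk1 and Cenpa have their highest mean there.

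Levels were compared per kb of transcript. In anti-m6A the highest levels per length were Birc5 (survivin, a subunit of the chromosomal passenger complex) at 194 CPM per kb, Ccnd2 (cyclin D2) at 162 CPM per kb and Cdk4 at 155 CPM per kb. In Input they were Cdk4 at 186 CPM per kb, Birc5 at 132, Cenpa (the centromeric histone) at 109 and Ccnd2 at 98.1 CPM per kb (means of 2 libraries). Neighbours in this Input order overlapped between libraries: Cdk4 had 205 and 166 CPM per kb, Birc5 96.97 and 167, Cenpa 41.7 and 176 and Ccnd2 79.8 and 116 CPM per kb. In bulk RNA, fewer dividing cells and less RNA per cell cannot be told apart.

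Replicates were close in anti-m6A and far apart in Input. Among the 30 members with at least 20 counts over both anti-m6A libraries, the median difference between the libraries was 1.15-fold, and 1 member (Aurka) differed by more than 2-fold. Among 23 such members in Input the median was 1.84-fold, and 10 differed by more than 2-fold. Genes at 0 in either library of a group were left out, which in Input dropped Aurka, Plk1, Bub1 and Ccnb1. The Input figures therefore leave out members with very unequal libraries. Over all genes, by the same rule, the medians were 1.14-fold in anti-m6A and 1.62-fold in Input. The summed level of the mitosis genes differed between the Input libraries: it was 573 and 582 CPM in the anti-m6A libraries, against 433 CPM in Input replicate 1 and 981 CPM in Input replicate 2. Cenpf, a kinetochore protein, had 15.3 and 14.6 CPM in anti-m6A, against 1.07 and 60.5 CPM in the Input libraries. Tyms (thymidylate synthase) had 220 and 224 CPM in anti-m6A, against 13.8 and 209 CPM in Input. Cdk1 went the other way in Input, at 63.7 and 34.6 CPM, and Mki67, Ube2c, Aurkb and Bub1b were at 0 in both. Aurka, Plk1, Bub1 and Ccnb1 were at 0 in Input replicate 1 and at 15.7, 5.24, 9.80 and 2.43 CPM in replicate 2. Beside this, the liver genes above were at 160 and 1973 CPM in the Input libraries, with Agxt and Cyp2c70 at 0 in both, and the erythroid genes at 455 and 701 CPM, with Epor and Car1 at 0 in both; their part in the difference was not tested.

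**Figure D2:**
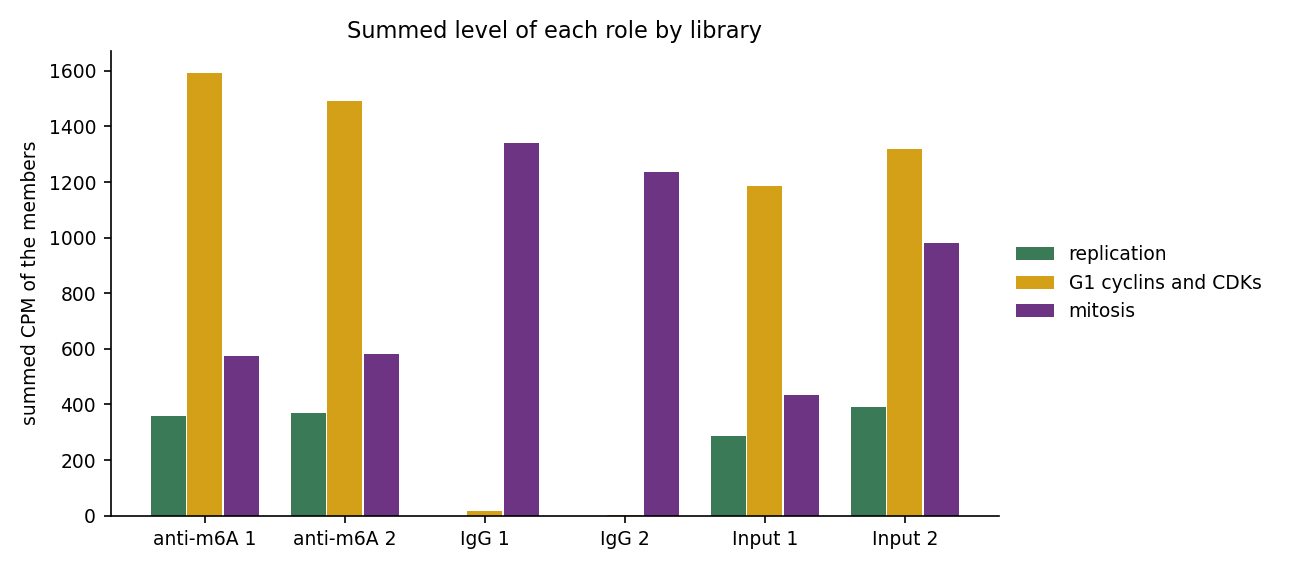
Summed CPM of the replication, G1 and mitosis members in each library. Replication members are at 0 in IgG, and mitosis members reach 1341 and 1236 CPM there through Cdk1, Top2a and Cenpa.

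Setting anti-m6A against Input shows which cell cycle transcripts made up more or less of the eluate than of the starting RNA. The members split in both directions. Rrm2, Cdk6, Ccnd1, Mki67, Ccna2, Cdc20 and Ube2c took a larger share, and Mcm3, Mcm5, Mcm6, Ccne1, Top2a and Tpx2 a smaller one. Of 36 members 31 passed the filter on low counts (Mcm2, Ccne2, Aurkb, Bub1 and Bub1b did not), and 7 were higher and 6 lower in edgeR (quasi-likelihood test, threshold 0.05 for p adjusted over 11281 genes). That is 22.6% higher and 19.4% lower, near the background of 28.0% and 20.5% over all genes tested, so the share of members called does not set them apart. Of the 7 higher members 4 (Rrm2, Cdk6, Mki67 and Ube2c) were at 0 in every Input and IgG library. They passed the filter through anti-m6A alone, so they could only come out higher. Over all genes tested, 1308 of the 3156 higher ones were at 0 in both Input libraries. Of the 6 lower members, Mcm3, Mcm5 and Mcm6 passed the filter through Input alone, the group where they are high. The calls rested on the anti-m6A pair. With anti-m6A replicate 1 left out 0 members were called, with 3.16% of all genes higher and 0.614% lower, and with replicate 2 left out 0 again, with 3.41% and 0.776%; the smallest adjusted p of a member was 0.0567 and 0.0507 in edgeR. At an unadjusted p under 0.05 those fits gave 4 higher and 4 lower members (19.1% and 10.1% of all genes) and 4 and 5 members (18.6% and 9.57%). Without Input replicate 1 there were 9 higher and 12 lower members, with 39.5% and 33.1% of all genes, and without Input replicate 2 there were 16 and 9, with 44.2% and 29.8%.

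**Figure D3:**
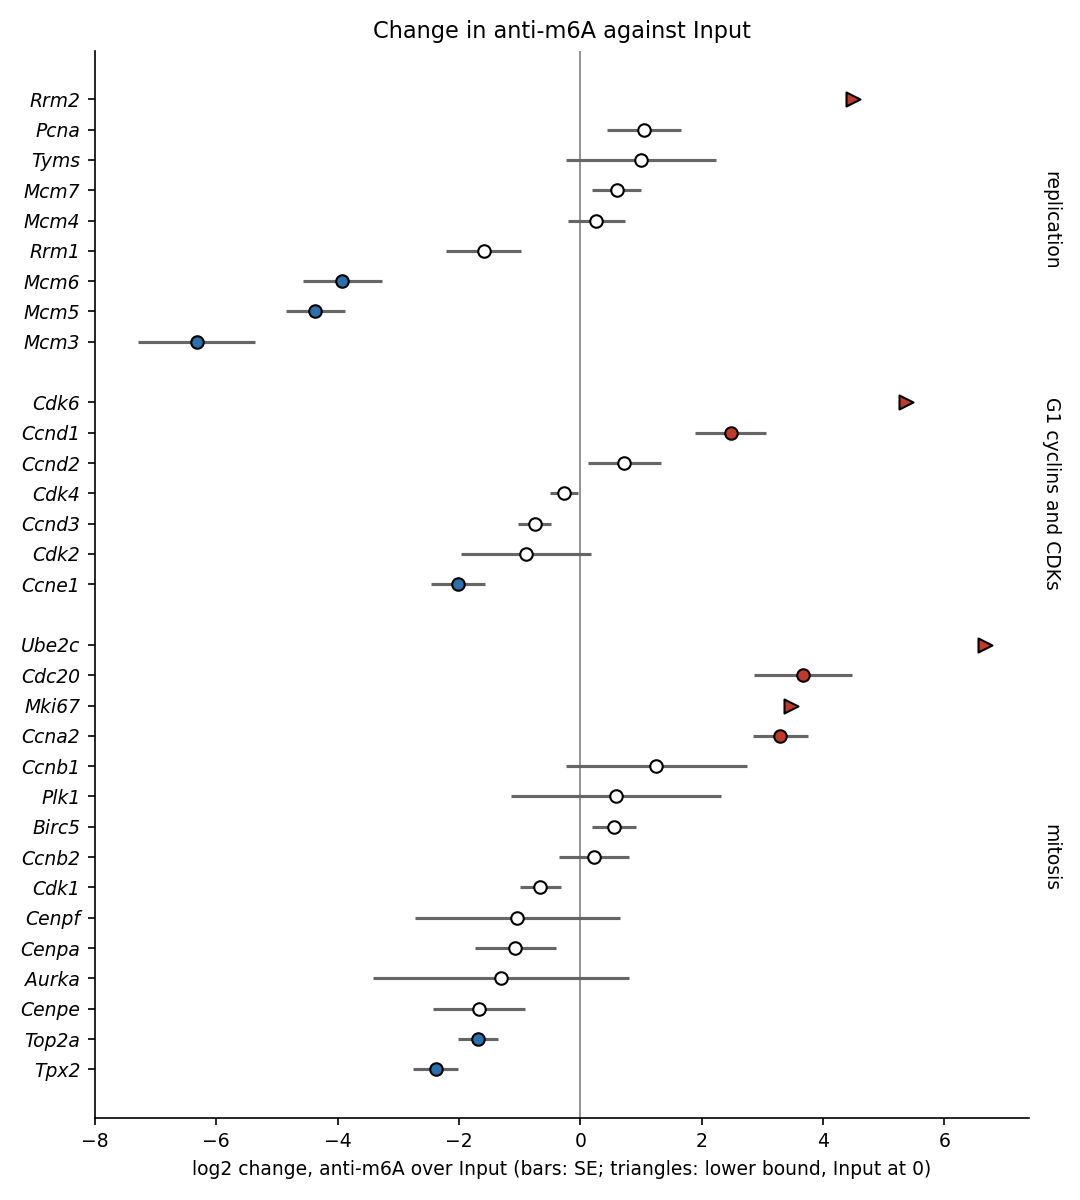
log2 change in anti-m6A over Input of the 31 members tested, by role, with bars for the SE (n = 2 per group); filled points are called, and triangles are lower bounds for genes at 0 in both Input libraries. Mcm3, Mcm5 and Mcm6 lie lowest among all members, and Ube2c highest.

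Among replication genes the helicase subunits divided sharply. MCM2 to MCM7 form a ring with a copy of each subunit that unwinds DNA at the fork. Mcm3 (chromosome 1, 20802966 to 20820312) had counts of 5 and 1 in anti-m6A, against 645 and 343 counts in Input, a log2 change of -6.32 ± 0.96 (SE, n = 2 per group; adjusted p = 0.0100 in edgeR). Mcm5 (chromosome 8, 75109468 to 75128439) had counts of 9 and 6 in anti-m6A, against 294 and 370 counts in Input, a log2 change of -4.36 ± 0.49 (SE; adjusted p = 0.0072 in edgeR). Mcm6 (chromosome 1, 128331575 to 128359705) had counts of 9 and 14 in anti-m6A, against 445 and 303 counts in Input, a log2 change of -3.92 ± 0.66 (SE; adjusted p = 0.0124 in edgeR). For each of these 3 subunits the groups were far apart, with no Input library below 294 counts and no anti-m6A library above 14. All 3 passed the count filter through Input alone, the group where they are high, so the filter favoured this direction.

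Mcm7 and Mcm4 went another way. Mcm7 (chromosome 5, 138164583 to 138172111) had 63.7 and 71.6 CPM in anti-m6A, against 56.9 and 32.5 CPM in Input, and was not called (log2 change 0.60 ± 0.41 SE, adjusted p = 0.294 in edgeR). Mcm4 had 17.8 and 11.3 CPM in anti-m6A and 12.1 and 12.2 CPM in Input, and was not called either (0.27 ± 0.47 SE, adjusted p = 0.680 in edgeR). Mcm2 was near the limit of detection in both groups, with 2 and 6 counts in anti-m6A and 7 and 0 in Input. In Input, Mcm3, Mcm5, Mcm6 and Mcm7 had similar means per kb, at 18.1, 10.5, 14.1 and 15.1 CPM per kb; in anti-m6A they had 0.213, 0.500, 0.927 and 22.8 CPM per kb.

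**Figure D4:**
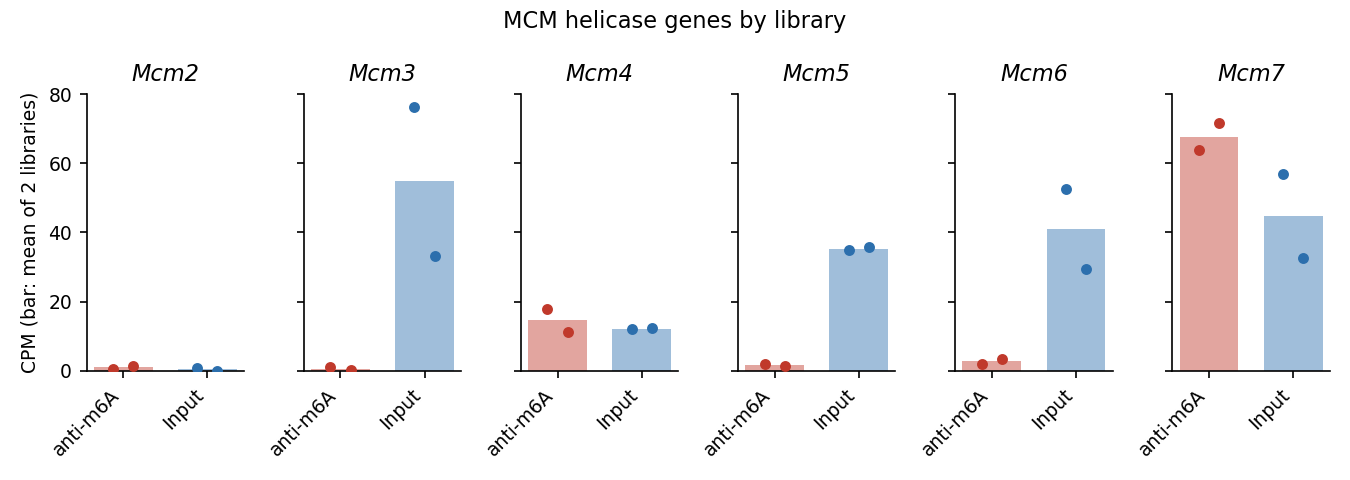
CPM of the 6 MCM helicase genes in the anti-m6A and Input libraries; points are libraries and bars their mean. Mcm3, Mcm5 and Mcm6 are at most 3.53 CPM in anti-m6A and between 29.4 and 76.3 CPM in Input, while Mcm7 is at 63.7 and 71.6 CPM in anti-m6A.

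The 2 subunits of ribonucleotide reductase, which makes deoxynucleotides, also differed. Rrm2, the regulatory subunit, had counts of 41 and 24 in anti-m6A, against 0 in both Input libraries, so its mean of 7.28 ± 1.73 CPM (SD, n = 2) was at least 22.5-fold higher than the Input floor of 3 counts per library (adjusted p = 0.0072 in edgeR). Rrm1, the catalytic subunit, had 6.22 and 7.31 CPM in anti-m6A, against 28.8 and 12.2 CPM in Input (log2 change -1.60 ± 0.61 SE, adjusted p = 0.0989 in edgeR). The libraries of Rrm1 did not overlap between groups, but the change was not called. DESeq2's Wald test called Rrm1 lower (log2 change -2.06, adjusted p = 0.0147). Pcna, the sliding clamp, had 37.7 and 40.8 CPM in anti-m6A and 10.5 and 27.5 CPM in Input, a log2 change of 1.05 ± 0.61 (SE) that was not called. Tyms, with Input libraries 15.1-fold apart, gave no call (1.00 ± 1.24 SE).

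Among the G1 cyclins and kinases, D-type cyclins differed from each other. Ccnd1 (cyclin D1; chromosome 7, 144929931 to 144939831) had 81.7 and 47.1 CPM in anti-m6A, against 7.69 and 15.3 CPM in Input, a log2 change of 2.48 ± 0.58 (SE, n = 2 per group; adjusted p = 0.0293 in edgeR). It was not called with library totals as the scaling (log2 change 1.96, adjusted p = 0.0515 in edgeR). Ccnd2 (chromosome 6, 127125162 to 127152188), the most abundant member by CPM, had 1046 and 1011 CPM in anti-m6A and 505 and 737 CPM in Input, and was not called (0.73 ± 0.60 SE). Ccnd3 had 86.5 and 81.2 CPM in anti-m6A and 155 and 127 CPM in Input; it was not called (-0.75 ± 0.27 SE, adjusted p = 0.0873 in edgeR), but was with DESeq2's size factors (log2 change -1.20, adjusted p = 0.0292 in edgeR) and with library totals (-1.30, adjusted p = 0.0240).

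The partner kinases differed as well. Cdk6 had counts of 66 and 51 in anti-m6A, against 0 in both Input libraries, at least 41.1-fold higher than the Input floor (adjusted p = 0.0072 in edgeR). Cdk4, which binds the same cyclins, had 330 and 305 CPM in anti-m6A and 421 and 341 CPM in Input and was not called (log2 change -0.26 ± 0.23 SE). DESeq2's Wald test called Cdk4 lower (log2 change -0.71, adjusted p = 0.0055). Ccne1 (cyclin E1, the partner of CDK2) had 18.3 and 14.1 CPM in anti-m6A, against 80.8 and 50.3 CPM in Input, a log2 change of -2.02 ± 0.44 (SE; adjusted p = 0.0243 in edgeR). Ccne2 was at 2 and 8 counts in anti-m6A and 0 in Input and was not tested. Cdk2, at 16.2 and 17.9 CPM in anti-m6A and 14.1 and 49.2 CPM in Input, was not called.

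Among mitosis genes Ube2c, Cdc20, Ccna2 and Mki67 were higher. Ube2c (chromosome 2, 164769929 to 164772902), the ubiquitin-conjugating enzyme of the anaphase-promoting complex, had counts of 158 and 131 in anti-m6A, against 0 in both Input libraries, at least 101.8-fold higher than the Input floor (adjusted p = 0.0072 in edgeR). Cdc20 (chromosome 4, 118432901 to 118437343), an activator of that complex, had 39.6 and 44.9 CPM in anti-m6A, against 1.42 and 5.14 CPM in Input, a log2 change of 3.67 ± 0.81 (SE; adjusted p = 0.0244 in edgeR). Ccna2 (cyclin A2) had counts of 38 and 20 in anti-m6A, against 5 and 7 counts in Input, a log2 change of 3.30 ± 0.46 (SE; adjusted p = 0.0072 in edgeR). Mki67, the proliferation marker Ki-67, had counts of 20 and 12 in anti-m6A, against 0 in Input, at least 11.1-fold higher (adjusted p = 0.0075 in edgeR).

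Tpx2 and Top2a were lower. Tpx2 (chromosome 2, 152847964 to 152895321), a spindle assembly factor that activates Aurora A, had 16.2 and 14.6 CPM in anti-m6A, against 67.2 and 94.0 CPM in Input, a log2 change of -2.39 ± 0.37 (SE; adjusted p = 0.0107 in edgeR). Top2a (chromosome 11, 98992947 to 99024199), the topoisomerase that untangles sister chromatids, had 27.2 and 22.9 CPM in anti-m6A, against 69.7 and 92.1 CPM in Input, a log2 change of -1.69 ± 0.33 (SE; adjusted p = 0.0124 in edgeR). In both genes every Input library was above every anti-m6A library. The other 9 tested mitosis genes were not called, with log2 changes from -1.68 (Cenpe, a kinetochore motor) to 1.25 (Ccnb1, cyclin B1). For Aurka, Plk1 and Cenpf the SE was 2.11, 1.73 and 1.69 on the log2 scale; their Input libraries ranged from 0 or 1.07 CPM in replicate 1 to between 5.24 and 60.5 CPM in replicate 2.

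Replication and mitosis genes had nearly the same median in this comparison. Higher and lower members numbered 1 and 3 of 9 tested replication genes, 2 and 1 of 7 G1 genes and 4 and 2 of 15 mitosis genes. The median log2 change was 0.26 in replication genes, -0.26 in G1 genes and 0.22 in mitosis genes, beside 0.18 over all 11281 genes. The mitosis median minus the replication median was -0.04, and 3.34 without Input replicate 2. Taken from the libraries of each replicate number on a log2(CPM + 0.5) scale, this difference was 2.08 for replicate 1 and -0.27 for replicate 2, with opposite signs. The ratio of summed mitosis to summed replication CPM was 1.60 and 1.58 in anti-m6A, against 1.51 and 2.51 in Input.

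Setting anti-m6A against IgG shows which members made up more or less of the anti-m6A eluate than of the control eluate. These are shares of each library, so they do not give the amount of RNA that either antibody held. Most members had counts in anti-m6A and none in IgG, and Cdk1 and Top2a took a larger share in IgG. Of 31 members tested 22 were higher and 2 lower (edgeR, same threshold), 71.0% and 6.45%, against a background of 73.1% and 8.31% over all genes tested. Of the 22, 20 were at 0 in both IgG libraries, the exceptions being Ccnd2 and Cdk2. The fitted median log2 change of the members was 9.13, or 3.27 once genes at 0 take their bound. Each IgG library held fewer counts than any other library, so absence there is absence at that depth.

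All 10 replication genes were at 0 in both IgG libraries. Tyms was at least 143-fold higher in anti-m6A than the IgG floor, Mcm7 at least 43.6-fold, Pcna at least 25.3-fold and Mcm4 at least 9.40-fold. Mcm3, Mcm5 and Mcm6, the subunits that were scarce in anti-m6A, stood at 0.645, 1.69 and 2.70 CPM there, with their means at 0.415, 1.09 and 1.74 times the IgG floor. Of the 9 tested replication genes 8 were called higher and Mcm3 was not (adjusted p = 0.0858 in edgeR). Mcm5 and Mcm6 passed the count filter through their Input counts: in a fit of the 4 anti-m6A and IgG libraries alone 24 members passed it, and Mcm3, Mcm5 and Mcm6 did not. The Rrm2 call was lost without anti-m6A replicate 1 or 2 (adjusted p = 0.113 and 0.0720 in edgeR). Among G1 genes all 7 tested were higher, with Cdk4 at least 204-fold, Ccnd3 at least 54.0-fold and Ccnd1 at least 41.5-fold above the IgG floor. Ccnd2 had 1046 and 1011 CPM in anti-m6A, against 13.9 and 2.59 CPM in IgG, a log2 change of 6.88 ± 0.79 (SE; adjusted p = 0.0012 in edgeR). Cdk2, at 7 and 0 counts in IgG, was no longer called without IgG replicate 2, without either anti-m6A library, with library totals or with no count filter.

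Of 15 tested mitosis genes 7 were higher and 2 lower, or 46.7% and 13.3%, beside 73.1% and 8.31% of all genes tested. The fit takes the spread of each gene over all groups, Input included. The part of Input spread in the lower share higher was not tested. Aurka, Plk1, Ccnb1 and Cenpf were at 0 in IgG and not called, with an SE of 4.68, 3.94, 3.46 and 3.48 on the log2 scale. These genes and Aurkb were called higher with either Input library left out. Birc5 was at least 118-fold higher than the IgG floor, Ccnb2 (cyclin B2) at least 73.0-fold, Cdc20 at least 27.2-fold and Ube2c at least 21.2-fold. Mki67 was at least 2.31-fold higher, and its call was lost without IgG replicate 1, without anti-m6A replicate 2 and by DESeq2; without anti-m6A replicate 1, and in the fit of the 4 libraries alone, it did not pass the count filter. Cdk1 (chromosome 10, 69335146 to 69352912), the kinase that drives entry into mitosis, had 33.2 and 29.0 CPM in anti-m6A, against 735 and 786 CPM in IgG, a log2 change of -4.61 ± 0.38 (SE; adjusted p = 0.0007 in edgeR). Top2a had 27.2 and 22.9 CPM in anti-m6A and 358 and 229 CPM in IgG, a log2 change of -3.55 ± 0.35 (SE; adjusted p = 0.0009 in edgeR). Cenpa had 70.7 and 81.2 CPM in anti-m6A and 245 and 217 CPM in IgG, and was not called (-1.61 ± 0.67 SE, adjusted p = 0.0733 in edgeR), but was with library totals, by DESeq2, in a fit of the 4 libraries alone and without either Input library. For Cdk1 and Top2a every IgG library was above every other library of the series, with Input at 63.7 and 34.6 CPM for Cdk1 and 69.7 and 92.1 CPM for Top2a. The liver genes, of which none was at 0 in both IgG libraries and 5 of 12 were at 0 in both anti-m6A libraries, summed to 25525 and 23389 CPM in the same IgG libraries, the erythroid genes to 3621 and 3531 CPM and the myeloid genes to 2577 and 1722 CPM; their part was not tested.

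The fitted median log2 change against IgG was 8.27 in replication genes and 7.41 in mitosis genes, or 2.23 and 1.36 once genes at 0 take their bound. The fitted difference of -0.86 turned to 1.06 when Mki67, Top2a and Ccna2, which are also high in S phase, were left out of the mitosis group.

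Other cell cycle genes were counted from 4 lists of 189 genes, of which 146 passed the filter. In anti-m6A against Input 43 were higher and 28 lower, 29.5% and 19.2%, again near the background. Replication factors gave 14 higher and 6 lower of 46, mitosis genes 14 and 13 of 51, regulators of cell cycle entry 8 and 8 of 32, and the anaphase-promoting complex with its regulators 7 and 1 of 17. Gins2, a subunit of the GINS complex that joins the MCM helicase at the fork, had 157 and 167 CPM in anti-m6A and 0 counts in both Input libraries, at least 502-fold higher. Knl1, a kinetochore scaffold, was at least 150-fold higher, Anapc15 of the anaphase-promoting complex at least 346-fold, and Cdkn2c, an inhibitor of CDK4 and CDK6, at least 89.9-fold, each at 0 in Input. These genes and Gins2 were also at 0 in IgG. They passed the filter through anti-m6A alone and could only come out higher. Unlike every member, Gins2, Knl1 and Anapc15 were still called without either anti-m6A library.

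At the other end, Dna2, a nuclease and helicase of the replication fork, had 0 counts in anti-m6A and 110 and 170 in Input, at least 21.4-fold lower. Ncapd3, a condensin subunit, and Cdkn2a, which encodes the inhibitor p16 and the protein ARF, were also at 0 in anti-m6A and at least 10.0-fold and 10.7-fold lower. Dna2, Ncapd3 and Cdkn2a were at 0 in IgG as well. They passed the filter through Input alone and could only come out lower. Cdc16, a subunit of the anaphase-promoting complex, had 54.5 and 59.2 CPM in anti-m6A and 193 and 107 CPM in Input (log2 change -1.40 ± 0.40 SE, adjusted p = 0.0478 in edgeR). With either anti-m6A library left out, Dna2, Ncapd3, Cdkn2a, Cdkn2c and Cdc16 lost their calls (adjusted p from 0.0510 to 0.304 in edgeR), and so did Cdc16 with either IgG library left out (0.0521 and 0.0523) and with no count filter (0.0580).

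Against IgG the 4 lists gave 106 higher and 5 lower of 146, or 72.6% and 3.42%, beside 73.1% and 8.31% of all genes tested. The highest fitted changes of each list, all from 0 in IgG, were Pttg1 (securin) at least 304-fold, Pole4 (a subunit of DNA polymerase epsilon) at least 218-fold, Cdc26 (anaphase-promoting complex) at least 214-fold and Lin37 (a subunit of the DREAM complex) at least 129-fold. Anapc11, the catalytic RING subunit of the anaphase-promoting complex, had 427 and 492 CPM in anti-m6A and 107 and 83.6 CPM in IgG, the smallest called increase of its list. Bub3, a checkpoint protein, had 155 and 136 CPM in anti-m6A and 2133 and 2081 CPM in IgG, a log2 change of -3.86 ± 0.22 (SE; adjusted p = 0.000548 in edgeR). Ccng2, an unconventional cyclin, had 16.6 and 14.4 CPM in anti-m6A and 215 and 165 CPM in IgG, and Orc3, a subunit of the origin recognition complex, 42.9 and 40.1 CPM in anti-m6A and 165 and 85.6 CPM in IgG. The Orc3 call was lost without either anti-m6A library and without IgG replicate 1 (adjusted p from 0.0569 to 0.113 in edgeR).

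Promoters were searched for 3 short motifs, which the choice of genes did not use. A promoter was taken as 250 bases before to 50 after the start of the gene in RefSeq (GRCm38.p6), with 1 start per gene, and 29 of 36 members had one; Mcm4, Ccnd1, Ccnd2, Ccne2, Ccna2, Aurkb and Tpx2 did not match. Searched on both strands, with overlaps allowed, were CCAAT (the CCAAT box), TTTGAA (the cell cycle homology region, CHR, known from mitosis genes), and TTGGCGC or TTCCCGC (E2F-type sites, known from replication genes). The CHR letters were in 11 of 15 mitosis promoters (73.3%), 1 of 9 replication promoters (11.1%) and 18.1% of the promoters of 27025 genes. The E2F-type letters were in 5 of 9 replication promoters (55.6%), 3 of 15 mitosis promoters (20.0%) and 6.93% of all. CCAAT was in 8 of 9, 14 of 15 and 37.9% of all. No test was made of these shares, and a match is not a bound site. The CHR and E2F-type letters are known from genes of these roles, so their higher shares could be foreseen from the choice of genes. The 27025 genes were not limited to genes with counts in these libraries.

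**Figure D5:**
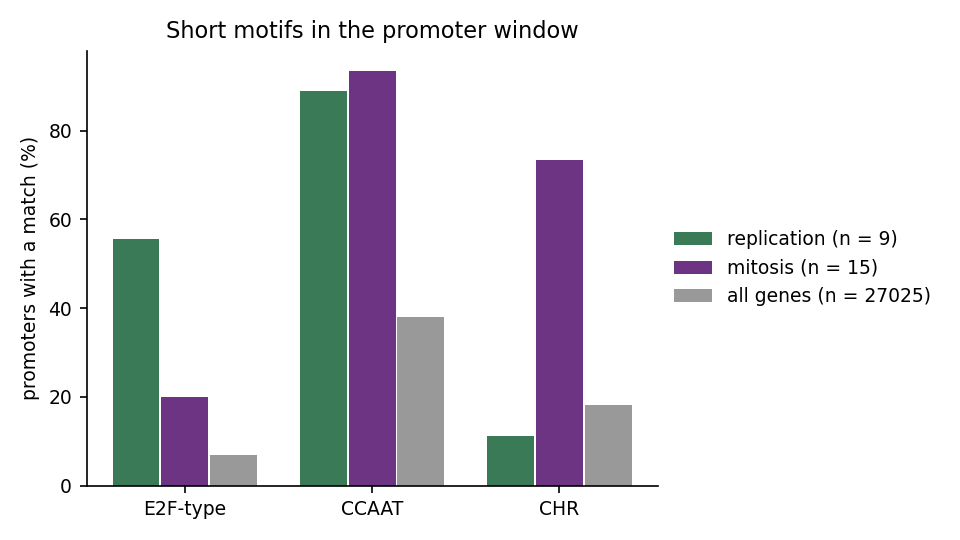
Percent of promoter windows with at least 1 match to E2F-type, CCAAT or CHR letters in replication members, mitosis members and all genes with a promoter. The CHR letters stand at 73.3% in mitosis members against 18.1% in all genes, and the E2F-type letters at 55.6% in replication members against 6.93%.

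Promoters are printed for the pairs that moved together in anti-m6A against Input: Mcm3 and Mcm5, both lower, and Cdc20 and Ube2c, both higher. Capitals mark CCAAT, CHR and E2F-type letters in either orientation, 5′ to 3′ on the strand of the gene.
Mcm3: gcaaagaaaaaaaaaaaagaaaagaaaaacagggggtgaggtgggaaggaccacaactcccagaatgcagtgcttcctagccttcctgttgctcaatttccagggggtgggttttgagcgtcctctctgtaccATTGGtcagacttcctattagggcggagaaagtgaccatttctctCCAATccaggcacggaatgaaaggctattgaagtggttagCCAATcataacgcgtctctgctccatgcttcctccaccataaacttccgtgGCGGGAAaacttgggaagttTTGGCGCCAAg
Mcm5: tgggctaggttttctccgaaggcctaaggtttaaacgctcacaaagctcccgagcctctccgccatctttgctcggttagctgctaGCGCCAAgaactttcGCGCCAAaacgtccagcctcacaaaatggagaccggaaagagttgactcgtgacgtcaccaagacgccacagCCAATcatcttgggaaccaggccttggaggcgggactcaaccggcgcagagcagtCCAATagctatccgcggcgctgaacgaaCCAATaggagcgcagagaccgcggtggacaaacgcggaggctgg
Cdc20: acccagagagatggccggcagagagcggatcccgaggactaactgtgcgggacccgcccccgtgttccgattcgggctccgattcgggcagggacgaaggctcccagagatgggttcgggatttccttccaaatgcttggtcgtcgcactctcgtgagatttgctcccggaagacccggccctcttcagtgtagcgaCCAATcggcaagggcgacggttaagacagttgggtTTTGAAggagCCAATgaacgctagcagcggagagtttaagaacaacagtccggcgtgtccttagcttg
Ube2c: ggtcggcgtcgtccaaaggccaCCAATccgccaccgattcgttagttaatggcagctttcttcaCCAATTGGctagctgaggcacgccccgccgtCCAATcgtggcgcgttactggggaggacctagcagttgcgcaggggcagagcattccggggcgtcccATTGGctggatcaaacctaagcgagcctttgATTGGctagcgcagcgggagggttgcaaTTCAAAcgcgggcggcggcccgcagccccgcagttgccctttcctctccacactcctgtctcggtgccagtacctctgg
The Mcm3 window is chr1:20820263-20820562 (minus strand) and the Mcm5 window chr8:75109259-75109558 (plus strand); Mcm3 has 3 CCAAT and 3 E2F-type matches and Mcm5 has 3 and 2, with no CHR in either. The Cdc20 window is chr4:118437294-118437593 (minus strand) and the Ube2c window chr2:164769679-164769978 (plus strand); each has 1 CHR match, 18 and 29 bases before the start, beside 2 and 6 CCAAT matches, and no E2F-type match. Promoters with the same letters were found among members that moved either way: Top2a, lower in anti-m6A than in Input, has 2 CHR matches, and Mcm7, not called, has 2 E2F-type matches.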

How the data were processed

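RNA from 6 libraries was measured, 2 each of anti-m6A, IgG and Input. The authors deposited raw counts per Entrez gene number in 1 table. Per the submitters' processing notes, Picard, featureCounts, edgeR 3.38.1 and mm10 were used, with no role or order; no aligner or annotation is given in the sources used here. Per the labels' protocols, libraries followed Smart-seq2, which is not stranded and has no molecular identifiers, so overlapping and antisense genes cannot be told apart. Of 27179 gene numbers 25275 matched a RefSeq symbol and 1904 did not; these stayed in the fits.

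Genes were kept by filterByExpr (minimum count 10, minimum total 15), leaving 11281, scaled by TMM, and fitted in edgeR 4.0.16 (R 4.3.3) by the quasi-likelihood method with 3 group means over all 6 libraries and 3 residual degrees of freedom. Adjustment was by Benjamini-Hochberg across every tested gene (threshold 0.05). The fit was also run on simulated counts with 200 genes changed. These had the same spread in every group, so that run did not test the fit under the wider spread of the Input libraries. Each SE was taken as the absolute log2 change over the square root of the F statistic. A group at 0 in both libraries was set to the mean CPM of 3 counts per library. Alternatives were DESeq2's size factors, library totals, no count filter, DESeq2 1.42.0, a fit of the 4 libraries compared, the replicate number as a block and leaving out each library. Every member could be named; of the other cell cycle genes, the called genes with the highest and lowest log2 change in each list and comparison were named, among those with at least 10 counts in every library of 1 of the groups compared. Members and lists were chosen with earlier results of these data known. Sequencing depth was 1278735 to 9493391 counts per library.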

Additional observations from a re-analysis of the deposited data

How the results depend on the processing

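The 13 member calls in anti-m6A against Input depended on having both anti-m6A libraries. Leaving out 1 library at a time gave 0 to 16 higher members and 0 to 12 lower, and 370 to 5152 higher and 72 to 3961 lower genes over all genes; the lone library of a pair is then assumed to vary like the other groups. Without Input replicate 2, 16 members were higher, and without Input replicate 1, 12 were lower. DESeq2 called 12 members and 3635 genes (32.2%) lower, against 6 and 2308. The members it added were Ccnd3, Cdk1, Cdk4, Cenpa, Cenpe and Rrm1. Scaling moved the median of all genes by -0.40 (DESeq2's size factors) and -0.51 (library totals), with 47.6% and 45.5% of calls higher, against 57.8%. The mitosis minus replication median ranged from -0.67 to 3.34 against Input and from -1.02 to -0.69 against IgG when 1 library was left out. Against IgG it was -0.96 with no count filter, -0.64 in the fit of 4 libraries, and 1.06 without Mki67, Top2a and Ccna2.

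With the replicate number as a block, 5 members were higher and 5 lower against Input (Ccnd1, Ccne1 and Mki67 lost, adjusted p = 0.0707, 0.0567 and 0.0661 in edgeR), 1242 genes were lower (18.8% of all genes higher and 11.0% lower), and the median difference against IgG was -0.27. The block also ended the calls of Cdc16, Cdkn2a and Ncapd3 against Input (0.0885, 0.0554 and 0.0588) and of Cdk2 and Mki67 against IgG (0.0739 and 0.0707). The labels do not say what a number marks. Replicate differences correlated at 0.38 between anti-m6A and IgG, 0.11 between anti-m6A and Input and 0.15 between IgG and Input.

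Signs turned only for members that had not been called. Mcm4 was at -0.18 with DESeq2's size factors, -0.27 with library totals, -0.18 by DESeq2 and from -0.0814 to 0.51 with 1 library left out. Ccnb2 was at -0.19, -0.29, -0.19 and -0.32 to 1.16 in the same settings. With the block, Aurka was at 0.77 and Cenpf at 0.73. With 1 library left out, Aurka ranged from -2.30 to 6.76, Cenpf from -1.99 to 3.77, Cdk2 from -1.51 to 0.27, Plk1 from -0.36 to 7.11 and Cenpa from -1.74 to 0.31. The cause was not tested. Against IgG 20 to 27 members were higher and 2 or 3 lower in the alternatives run, beside 56.1% to 82.6% and 5.5% to 11.8% of all genes.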

Other observations

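Among the members, the number of exons moved with the change in anti-m6A against Input more than transcript length did. The 7 higher members have 5 to 14 exons in their principal transcript (Ccnd1 5 and Mki67 14), and the 6 lower ones 12 to 36 (Ccne1 12 and Top2a 36). Spearman's rho between exon number and log2 change was -0.53 across 31 members and -0.17 across 10192 tested genes; with transcript length it was -0.11 and -0.20, and with coding length -0.37 and -0.20. Cenpe, with 46 exons the most of any member, was not called. Neither were Rrm1, Cenpf, Mcm4 and Mcm7, with 19, 18, 16 and 15 exons. These values were looked at after the changes were seen, and genes share libraries, so they are a description.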
